A study of Homo sapiens with 6 samples.

Results

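The clustered protocadherin genes were taken as all protein-coding genes of chromosome 5 in the RefSeq gene table whose symbol starts with PCDHA, PCDHB or PCDHG. There were 53 of them among 19974 protein-coding genes on the autosomes and X, namely 15 alpha, 16 beta and 22 gamma genes. They lay side by side over 727 kb at chr5:140786140-141512975 (hg38), and 6 protocadherin pseudogenes of the same stretch were not counted as members. Binding to them was read from chromatin immunoprecipitation sequencing (ChIP-seq) of FOSL2 and JUNB in HaCaT, a human keratinocyte line that became immortal spontaneously. Both proteins are subunits of AP-1, a transcription factor that binds DNA as a dimer, FOSL2 from the FOS family and JUNB from the JUN family. The labels give no treatment or genetic change for either factor, with 3 libraries for FOSL2 and 3 for JUNB and a different antibody for each. Each factor had 1 list of regions and no values per library, with 75703 regions for FOSL2 and 40061 for JUNB. No value below therefore has a replicate error or a test, and sequencing depth is unknown. Fold enrichment, the ratio of signal over background that the authors give per region, is ranked only within its own list.

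Clustered protocadherins are cadherin-like proteins of the cell surface, known best from neurons, where each cell uses a small selection of them and cells with the same selection recognise each other. Each alpha and gamma gene has its own promoter and a large variable exon, which is spliced to constant exons shared by its whole subcluster at the far end, so these genes overlap one another. Beta genes have no shared constant exons. In neurons the choice of promoter is known to involve CTCF, cohesin, DNA methylation and distant enhancers, among them HS5-1 between the alpha and beta genes. The position of that enhancer was not in the annotation used here, and no region was assigned to it. The C-type genes at the end of the alpha and gamma rows (PCDHAC1, PCDHAC2, PCDHGC3, PCDHGC4 and PCDHGC5) are known from mouse neurons to be used mostly constitutively rather than by choice among promoters.

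The promoter windows of 6 members, credited to RefSeq (GRCh38.p14, plus strand), show what the starts of these genes look like, from 250 bases before the gene's start to 50 after it. The first 5 have CGCT on either strand in capitals, the 4-base core of an element known at most, but not all, clustered protocadherin promoters. The capitals mark these 4 letters only. They do not show that the whole element is present, since CGCT was in 81.2% of all protein-coding windows. PCDHA4 stands for an ordinary alpha gene, PCDHB4 and PCDHGA1 are the members with a FOSL2 region nearest to their start, and PCDHAC2 and PCDHGC3 are C-type genes. The last, PCDHGA11, has in capitals a TGANTCA word, where N is any base. This is a looser form of the word that AP-1 is known to bind, which has C or G in the middle. The middle base at PCDHGA11 is T, so its match is not that stricter word.
PCDHA4 (chr5:140806818-140807117): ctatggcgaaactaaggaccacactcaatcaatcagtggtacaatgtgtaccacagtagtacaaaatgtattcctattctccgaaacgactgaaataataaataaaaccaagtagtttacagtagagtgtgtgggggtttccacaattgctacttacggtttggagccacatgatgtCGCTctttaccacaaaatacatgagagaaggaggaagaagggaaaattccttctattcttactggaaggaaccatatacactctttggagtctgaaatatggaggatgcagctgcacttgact
PCDHAC2 (chr5:140966226-140966525): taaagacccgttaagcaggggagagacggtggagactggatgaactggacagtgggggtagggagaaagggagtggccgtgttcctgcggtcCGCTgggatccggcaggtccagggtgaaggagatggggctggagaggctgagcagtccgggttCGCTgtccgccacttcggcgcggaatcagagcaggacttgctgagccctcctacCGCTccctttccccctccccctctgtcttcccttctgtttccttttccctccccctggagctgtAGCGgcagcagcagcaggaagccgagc
PCDHB4 (chr5:141121568-141121867): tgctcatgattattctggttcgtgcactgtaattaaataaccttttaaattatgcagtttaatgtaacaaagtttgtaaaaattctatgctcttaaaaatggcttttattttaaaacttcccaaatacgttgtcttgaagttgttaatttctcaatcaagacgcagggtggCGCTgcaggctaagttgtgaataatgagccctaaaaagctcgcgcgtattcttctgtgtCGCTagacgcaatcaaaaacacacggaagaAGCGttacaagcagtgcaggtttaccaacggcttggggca
PCDHGA1 (chr5:141330264-141330563): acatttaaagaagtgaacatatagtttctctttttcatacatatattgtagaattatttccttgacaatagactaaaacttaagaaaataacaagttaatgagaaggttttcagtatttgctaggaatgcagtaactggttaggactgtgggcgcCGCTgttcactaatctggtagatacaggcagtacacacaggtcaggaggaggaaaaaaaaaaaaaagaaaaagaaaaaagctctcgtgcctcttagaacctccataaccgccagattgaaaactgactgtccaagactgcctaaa
PCDHGC3 (chr5:141475716-141476015): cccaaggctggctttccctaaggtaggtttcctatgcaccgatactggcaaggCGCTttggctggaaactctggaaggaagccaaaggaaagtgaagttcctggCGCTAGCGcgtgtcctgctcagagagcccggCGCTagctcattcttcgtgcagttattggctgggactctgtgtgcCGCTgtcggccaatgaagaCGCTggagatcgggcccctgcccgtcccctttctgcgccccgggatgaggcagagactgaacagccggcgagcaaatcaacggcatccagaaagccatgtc
PCDHGA11 (chr5:141420801-141421100): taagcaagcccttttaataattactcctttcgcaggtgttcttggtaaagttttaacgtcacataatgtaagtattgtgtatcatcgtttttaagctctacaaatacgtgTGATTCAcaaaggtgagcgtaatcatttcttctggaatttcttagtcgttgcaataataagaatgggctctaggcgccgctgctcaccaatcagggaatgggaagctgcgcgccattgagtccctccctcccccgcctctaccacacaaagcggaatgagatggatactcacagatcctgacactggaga

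Both AP-1 subunits were sparse along the genes and denser on either side. Within the 727 kb from the first alpha to the last gamma gene lay 8 FOSL2 regions and 4 JUNB regions, or 11.01 and 5.50 per Mb, against 25.2 and 13.2 per Mb over chromosome 5 and 24.98 and 13.2 over all chromosomes used. The 100 kb beyond the gamma genes held 8 FOSL2 and 7 JUNB regions, and the 100 kb before the alpha genes held 3 and 4. With both flanks the locus, chr5:140686140-141612975, held 19 FOSL2 and 15 JUNB regions (20.5 and 16.2 per Mb). These densities were not tested and sequence that reads cannot be assigned to was not taken out.

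**Figure D1:**
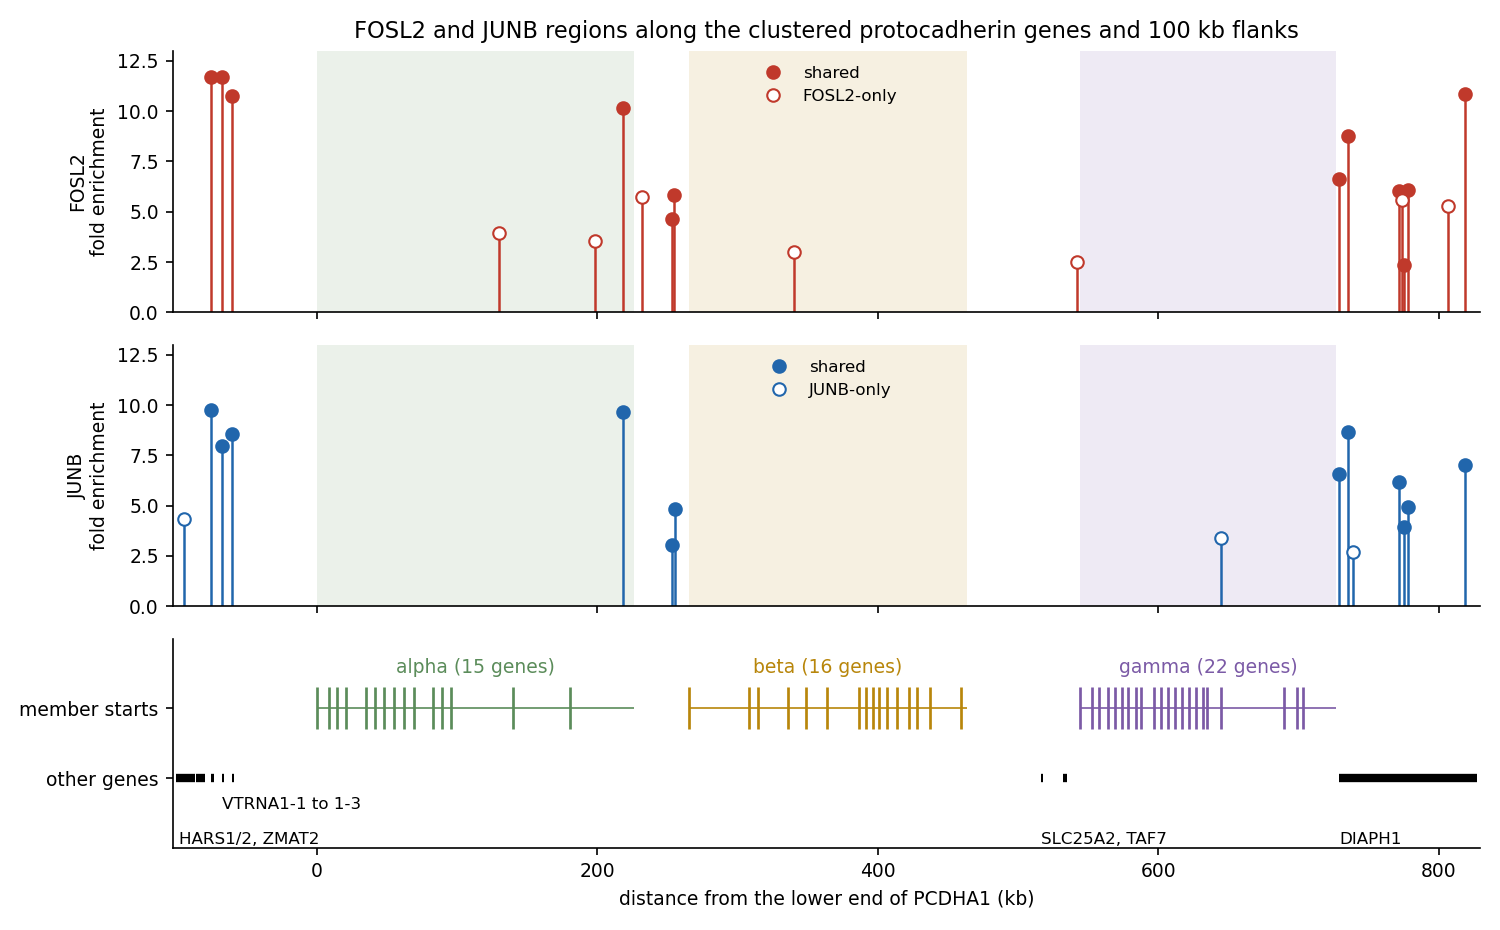
Fold enrichment (the authors' ratio of signal over background, linear axis) of each FOSL2 region (top) and JUNB region (middle) at its summit, against distance from the lower end of PCDHA1 in kb. Filled points share a base with a region of the other factor, and the bottom panel marks the starts of the 53 members and other named genes. Inside the beta row and inside the gamma row (each shaded) there is at most 1 region per factor. Its fold enrichment is 3.00 (FOSL2, beta) or 3.38 (JUNB, gamma). Tall shared points stand at the vault RNA genes, at the end of the alpha row and over DIAPH1.

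The strongest site of the cluster lay near the end of the alpha row, and every alpha gene contained it. Its FOSL2 region, chr5:141003717-141005099, was 1383 bp wide with a fold enrichment of 10.2 and a −log10 p of 214, which placed it at rank 342 of 75703 by p-value and 7396 by fold enrichment. Its JUNB region, chr5:141003825-141004756, had a fold enrichment of 9.66 and a −log10 p of 95.3, at ranks 658 of 40061 and 1491. The summits were 25 bp apart. The site lay 37.9 kb past the start of PCDHAC2, the last alpha gene, and inside the stretch that RefSeq annotates as the alpha constant region (PCDHACT, chr5:140978949-141012344). Exons and introns were not separated here, so its place relative to the constant exons was not determined.

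The other regions within alpha genes were weak and held FOSL2 alone. One at chr5:140916350-140916543, between the starts of PCDHA13 and PCDHAC1, had a fold enrichment of 3.95, and one at chr5:140984387-140984686, past the start of PCDHAC2, had 3.57. These values exceeded 26.8% and 19.8% of FOSL2 regions. Thus PCDHA1 to PCDHA13 each had 3 FOSL2 regions and 1 JUNB region within 5 kb of their span, and PCDHAC1 and PCDHAC2 had 2 and 1.

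The 39.0 kb between the alpha and beta genes held 3 FOSL2 and 2 JUNB regions. Going from alpha to beta, FOSL2 stood alone at chr5:141017860-141018289 with a fold enrichment of 5.75. A shared site followed at chr5:141039619-141040151, with 4.66 for FOSL2 and 3.06 for JUNB and summits 19 bp apart. A second shared site lay at chr5:141040945-141041432, with 5.82 for FOSL2 and 4.82 for JUNB and summits 48 bp apart.

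Beta genes were nearly free of regions. Of 16 beta genes only PCDHB4 had a region within 5 kb of its span, a FOSL2-only region at chr5:141126377-141126721 whose fold enrichment was 3.00 and which began 754 bp past the gene's end. No beta gene had a JUNB region within 5 kb. Just outside the limit lay PCDHB5, 8.49 kb from the same FOSL2 region, and PCDHB1, with the FOSL2 and JUNB regions of the second shared site 9.94 and 9.99 kb from its start. Among all protein-coding genes with spans in the range of the beta genes, 50.3% had a FOSL2 and 41.0% a JUNB region within 5 kb.

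All gamma genes had a region of each factor at a site just beyond their common end. A FOSL2 region at chr5:141513645-141515064 (fold enrichment 6.65) and a JUNB region at chr5:141513741-141514877 (6.57) began 670 and 766 bp past the end of all 22 gamma genes, with summits 38 bp apart. The FOSL2 region also reached the lower end of DIAPH1, the neighbouring gene on the opposite strand, which encodes an actin-nucleating formin. Inside the gamma row itself there was no FOSL2 region and 1 JUNB region, chr5:141430546-141430834, JUNB-only, with a fold enrichment of 3.38 and a −log10 q of 4.68. It began 39 bp past the start of PCDHGA12, with its summit 79 bp past that start. The region lay inside the span of 19 gamma genes and was the 1 region of either factor within 1 kb of the start of a clustered protocadherin gene. A weak FOSL2-only region (2.52, −log10 q 2.72), chr5:141328299-141328570, ended 1.94 kb before the start of PCDHGA1 and exceeded 2.97% of FOSL2 regions.

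Counted over gene spans within 5 kb, the share of all genes lay within the members' interval for both factors, and overlapping members shared the same few regions. A FOSL2 region lay within 5 kb of the span of 38 of 53 members (71.7%, 95% Wilson interval 58.4 to 82.0), against 70.5% of all protein-coding genes. A JUNB region did so for 37 of 53 (69.8%, 56.5 to 80.5), against 58.2%. For JUNB this held at 5 and 10 kb only: the members were at 69.8% against 51.8% of all genes at 1 kb, and at 71.7% against 83.9% at 50 kb. With the 10000 JUNB regions of highest fold enrichment they were at 69.8% against 21.1%. A shared site lay within 5 kb of the same 37 alpha and gamma genes, against 47.2% of all genes. The 38 genes with FOSL2 shared 6 distinct regions, and the 37 with JUNB shared 3. Intervals cover counting error only and take genes as separate, which these are not. The pooled shares join unlike subclusters. By span, 15 of 15 alpha and 22 of 22 gamma genes had a region of each factor. Of 16 beta genes 1 had a FOSL2 region and 0 a JUNB region. Genes with spans in the range of the alpha and gamma genes, not the beta genes, carried FOSL2 in 84.4% and JUNB in 70.0% of cases.

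Counted at gene starts, the members stood far from AP-1 regions. A FOSL2 region lay within 5 kb of the start of 2 of 53 members (3.77%, 1.04 to 12.8), PCDHB4 and PCDHGA1, against 45.5% of 15819 protein-coding genes. A JUNB region lay within 5 kb of the start of 1 of 53 (1.887%, 0.334 to 9.94), PCDHGA12, against 38.1%, and a shared site of 0 of 53, against 24.7%. The next nearest starts were those of PCDHB5 for FOSL2 (8.49 kb) and PCDHGA11 for JUNB (9.50 kb). Within 1 kb of the start the counts were 0 for FOSL2 and 1 for JUNB, against 26.9% and 27.4% of all genes. Within 5 kb of either end, 23 members had a FOSL2 region (43.4%, against 56.5%) and 22 a JUNB region (41.5%, against 45.3%), and these were the 22 gamma genes through their common end plus PCDHB4 for FOSL2. Within 1 kb of either end the order turned, with the same counts of members against 31.2% (FOSL2) and 29.3% (JUNB) of all genes. The differences from all genes were not tested, since the members share regions.

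**Figure D2:**
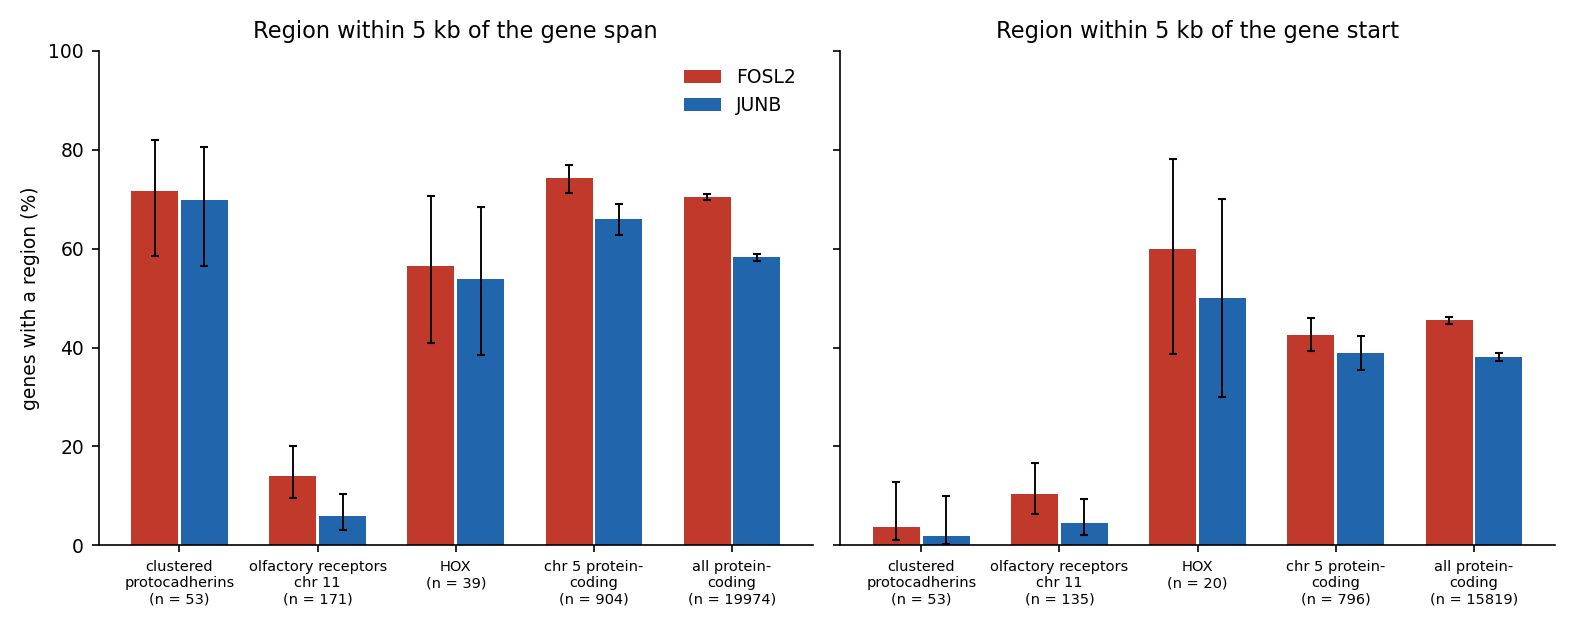
Percent of genes with a FOSL2 or JUNB region within 5 kb of the gene span (left) or of the gene start (right), with 95% Wilson intervals that cover counting error only. By span the clustered protocadherins are at 71.7% and 69.8%, against 70.5% and 58.2% of all protein-coding genes, and by start they are at 3.77% and 1.887%, against 45.5% and 38.1%.

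The median distance from a member's start to the nearest region was 55.7 kb for FOSL2 and 80.4 kb for JUNB, against 6.48 and 11.9 kb over all protein-coding genes. By subcluster the FOSL2 medians were 68.0 kb (alpha), 53.4 kb (beta) and 43.5 kb (gamma), and the JUNB medians were 101, 139 and 40.4 kb. Among alpha genes, PCDHAC1 was nearest to a FOSL2 region (9.76 kb) and PCDHA5 farthest (94.7 kb). For JUNB these were PCDHAC2 (37.3 kb) and PCDHA11 (135 kb). Among beta genes PCDHB14 was farthest from FOSL2 (96.6 kb) and PCDHB15 from JUNB (185 kb). Among gamma genes PCDHGA11 was farthest from FOSL2 (92.5 kb), and PCDHGA1, the gene nearest to FOSL2, was farthest from JUNB (100 kb). The C-type gamma genes PCDHGC3, PCDHGC4 and PCDHGC5 were 37.7, 28.6 and 24.6 kb from the FOSL2 region past the common end, and 37.8, 28.7 and 24.7 kb from its JUNB partner.

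**Figure D3:**
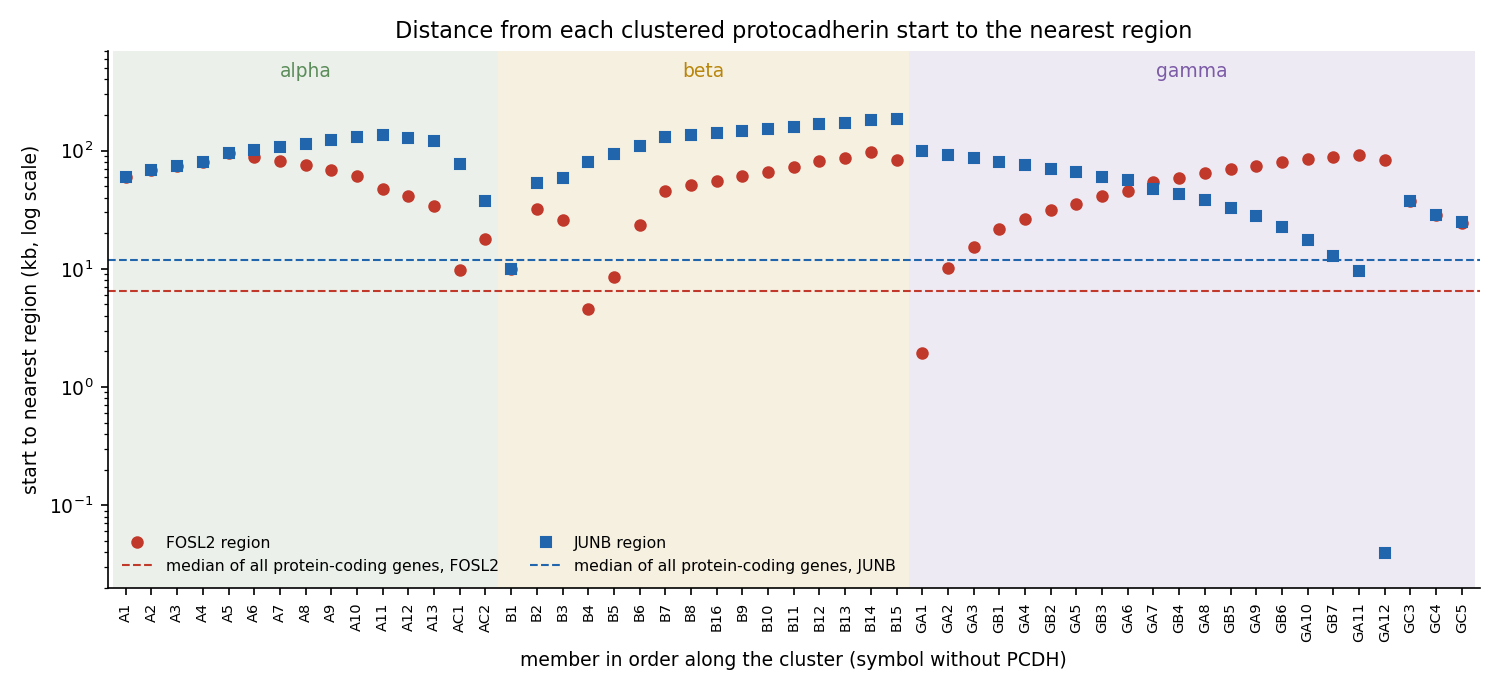
Distance in kb (log axis) from the start of each of the 53 members, in order along the cluster, to the nearest FOSL2 region (circles) and JUNB region (squares), with the medians of all protein-coding genes as dashed lines (6.48 and 11.9 kb). Circles and squares overlap where 1 shared site is nearest for both, and the point at the bottom is PCDHGA12 at 0.039 kb.

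Long stretches without a region ran across the gene starts. JUNB was missing over 389 kb, chr5:141041390-141430545, which held the starts of all 16 beta genes and of 19 gamma genes, and over 277 kb that held the starts of all 15 alpha genes. These were the 70th and 108th longest of 2403 stretches between neighbouring JUNB regions on chromosome 5, whose median was 26.5 kb. For FOSL2 the longest ran 202 kb from PCDHB4 to PCDHGA1, 190 kb over the starts of PCDHA1 to PCDHA13 and 185 kb over the starts of all 22 gamma genes, ranks 98, 114 and 118 of 4581, against a median of 16.5 kb. Longer stretches were present elsewhere on the chromosome.

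Summits of shared regions lay about as close together here as over the whole FOSL2 list. Regions are called shared because they overlap, so close summits are partly given by that rule. Of the locus with its flanks, 12 of 19 FOSL2 regions (63.2%, against 41.1% of the whole list) and 12 of 15 JUNB regions (80.0%, against 78.5%) were shared. Within the cluster these were 3 of 8 and 3 of 4. The summits of the 12 pairs were 2 to 86 bp apart with a median of 25 bp, against a median of 31 bp over all 31150 shared FOSL2 regions. The median fold enrichment in the cluster was 4.31 for FOSL2 and 4.10 for JUNB, against 5.56 and 4.79 in the whole lists, and with the flanks it was 5.82 and 6.17.

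**Figure D4:**
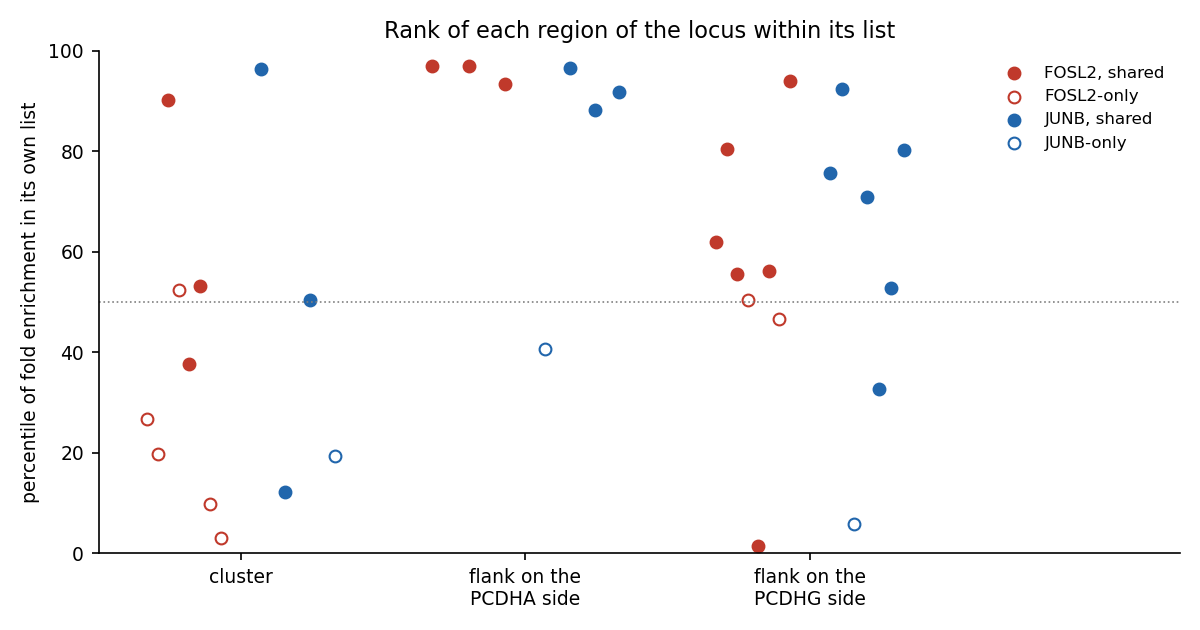
Percentile of each region's fold enrichment within its own list, by place (cluster, flank before the alpha genes, flank beyond the gamma genes), with shared regions filled and single-factor regions open. In the cluster 1 site is above the 90th percentile for both factors, while the 3 shared sites of the flank before the alpha genes all lie above the 88th.

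The highest fold enrichment of each factor in the locus lay before the alpha genes, at the vault RNA gene VTRNA1-1. Vault RNAs are short noncoding RNAs of the vault particle, made by RNA polymerase III. VTRNA1-1 carried a FOSL2 region of 11.7 and a JUNB region of 9.73, VTRNA1-2 carried 11.7 and 7.98, and VTRNA1-3 carried 10.7 and 8.58. All 3 pairs were shared, with FOSL2 summits 84, 56 and 85 bp below the lower end of the gene and JUNB summits 109, 78 and 83 bp below it. From VTRNA1-3 to the start of PCDHA1 no region of either factor lay in 59.6 kb. Farther out, a JUNB-only region of 4.31 (chr5:140690902-140691925) covered the neighbouring starts of HARS1 and HARS2, which encode the cytosolic and mitochondrial histidyl-tRNA synthetases.

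In the flank beyond the gamma genes all regions but the first JUNB region overlapped DIAPH1. The strongest were shared sites at chr5:141520681-141521831 (8.75 for FOSL2, 8.66 for JUNB) and chr5:141603953-141604921 (10.9 for FOSL2, 7.03 for JUNB). Between them lay shared sites at chr5:141557619-141558176 (6.03 for FOSL2, 6.17 for JUNB), chr5:141560848-141561050 (2.33 and 3.96) and chr5:141564080-141564655 (6.09 and 4.95). FOSL2-only regions at chr5:141559285-141559942 and chr5:141592072-141592505 had 5.60 and 5.28, and a JUNB-only region at chr5:141524877-141525030 had 2.72. Positions of shared sites are those of the FOSL2 region.

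The promoter windows of the members were unlike those of most genes in base composition. Of 53 members 47 had a window in the table, and PCDHA3, PCDHA13, PCDHB6, PCDHB11, PCDHGA12 and PCDHGC5 had none. The windows held a median of 39.7% G and C bases, against 62.7% over 15812 protein-coding genes, and a median of 7 CG pairs, against 22. Beside windows of like composition the order of CG pairs turned. The 43 members outside the C type held a median of 7, against 3 in all windows with a G and C share in their range. The 4 C-type windows stood apart, with 59.0 to 66.0% G and C and 15 to 27 CG pairs, against 32.3 to 51.3% and 2 to 16 in the other 43. Their G and C shares did not overlap with those of the other members, while the CG counts of PCDHAC2 (15) and PCDHGB6 (16) did. None of the 47 windows overlapped a FOSL2 or JUNB region. This follows from the distances to the starts of these members. The nearest regions were 1.94 kb (FOSL2, PCDHGA1) and 9.50 kb (JUNB, PCDHGA11) away, beyond the windows. The JUNB region that began 39 bp past the start of PCDHGA12 could not count, since that member had no window. The share of all protein-coding windows that overlapped a region was not determined.

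TGANTCA, with any middle base and thus the same pattern on both strands, was found in 1 of 47 member windows (2.13%), against 5.76% of all windows. The match was at PCDHGA11, 140 bases before the start, and had T in the middle. Words with C or G in the middle, the stricter AP-1 form, were not counted apart. The related word TGACGTCA was found in 0 of 47, against 2.59%. Outside the C type TGANTCA was in 1 of 43 windows (2.33%) and TGACGTCA in 0, against 11.6% and 0.865% of all windows with a G and C share in the range of these members. CGCT, searched on both strands as CGCT or AGCG, was in 46 of 47 windows (97.9%), all but that of PCDHA9, against 81.2% of all windows. Of the 43 members outside the C type 42 held it, against 43.9% of all windows in that range, 32.3 to 51.3%. CGCT contains a CG pair, and these members also held more CG pairs than windows of that range (median 7, against 3). These matches are descriptions of letters in a 300-base window, and windows of neighbouring members are related by descent.

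**Figure D5:**
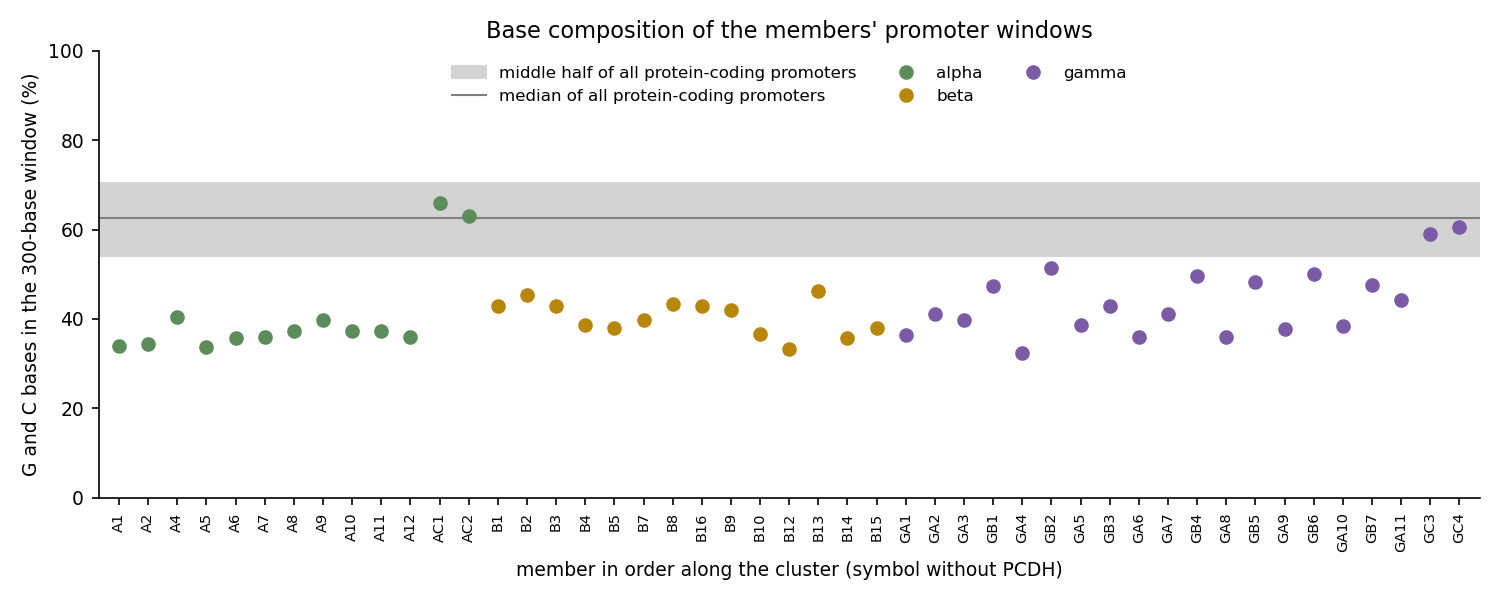
Percent of G and C bases in the 300-base promoter window of 47 members in order along the cluster, with the median (62.7%) and middle range (54.0 to 70.3%) of all protein-coding windows in grey. The 4 C-type genes fall in the grey band and the other 43 below it.

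Other tandem gene families differed among themselves. Olfactory receptor genes of chromosome 11 are also expressed selectively from neuron to neuron. They had a FOSL2 region within 5 kb of the start in 14 of 135 cases (10.4%, against 45.5% of all genes). A JUNB region lay there in 6 (4.44%, against 38.1%). Median distances were 47.3 and 79.3 kb, against 6.48 and 11.9 kb over all genes. HOX genes had them in 12 and 10 of 20 cases, with medians of 4.30 and 5.22 kb. Protocadherins outside the cluster and related large cadherins had a FOSL2 region within 5 kb of their span in 15 of 22 cases (68.2%, against 70.5% of all genes) and one of JUNB in 14 (63.6%, against 58.2%). Within 5 kb of the start each factor lay at 5 of 16 of them (31.25%, against 45.5% and 38.1% of all genes). The highest values by span were 16.5 for FOSL2 at PCDH11X and 11.03 for JUNB at PCDH15. The nearest FOSL2 region was 360274 bp from the start of PCDH11X, and the nearest JUNB region 296941 bp from that of PCDH15. By span, PCDH10, PCDH17, PCDH18, PCDH20 and DCHS2 had no region of either factor. PCDH1, a protocadherin on the same chromosome past DIAPH1, had 4 regions of each factor, and the nearest to its start were 487 bp (FOSL2) and 134 bp (JUNB) away. Among marker genes of cell types, all 6 keratinocyte genes listed (KRT5, KRT14, TP63, ITGA6, COL17A1 and LAMB3) had regions of both factors within 5 kb of their span. So had 5 of 6 neuronal genes, all but GAP43, against 70.5% (FOSL2) and 58.2% (JUNB) of all genes. Gene length was not matched in this comparison, and several of the neuronal genes, such as SYT1 and RBFOX3, are long. Within 5 kb of the start, FOSL2 lay at 4 of 5 keratinocyte and 1 of 5 neuronal genes, against 45.5% of all genes. JUNB lay at 4 of 5 and 2 of 5, against 38.1%. These few genes were not tested, and expression was not measured, so the counts do not check the cell label.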

How the data were processed

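Chromatin of HaCaT cells was immunoprecipitated for FOSL2 or JUNB, with 3 ChIPmentation libraries per factor, per the labels. The submitters' processing notes name Bowtie2, SAMtools 1.8, Picard 1.89, MACS2, deepTools and hg38, without order or options. Both deposited lists are named as conservative overlaps. Beyond that name, how the libraries were combined, and against which control, is not stated in the sources. The authors deposited 1 list of narrow peaks per factor. Per region, the deposited fold enrichment is a linear ratio of signal over background. The deposited −log10 p and −log10 q were read as written, and the deposited score was 10 times that −log10 p, within 1 unit. Of the FOSL2 regions, 1 lay on a sequence other than the autosomes and X and was not used.

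Gene positions came from RefSeq (GRCh38.p14), which shares chromosome coordinates with hg38. Distances were bases between a region and a gene's span, ends or start, with 5 kb as the limit. Strand was taken from the promoter table, which held 15813 protein-coding genes. All 47 members in it were on plus, so the lower end was used as the start of every member. Backgrounds include the members. Regions were shared when they had at least 1 base in common. Fold enrichment was ranked only within its list. The interval code was tested on simulated data (Python 3.11.15, pandas 2.3.3, scipy 1.17.1).

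Members and gene lists were chosen with earlier results of these data known, and no test was run. By rule, members were named when a region lay within 5 kb of an end, when an end was nearest to or farthest from a region in their subcluster, or when C-type. The text ranks members by distance from the start instead, a change made after the values were seen, because alpha and gamma genes share their other end. List genes were named when highest for a factor or without a region. PCDH1, CTCF, PCDHA4, PCDHA9, PCDHB5, PCDHGB6 and VTRNA2-1, a gene annotated as a vault RNA, were chosen after their values were seen. Genome sequence was not used here beyond the promoter windows.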

Additional observations from a re-analysis of the deposited data

How the results depend on the processing

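Of 46 alternatives 29 stayed within the main value's 95% Wilson interval, within 1.5 times a density, or within the interquartile range of a median. This concerns the members' values alone, since the share of all genes moved with the setting. The Wilson interval takes members as separate, which these are not. It served here only to sort the alternatives and does not measure how stable a share is. For JUNB with the 10000 regions of highest fold enrichment, members were at 69.8% against 21.1% by span and 41.5% against 8.59% by ends. With −log10 q of at least 10 they were at 69.8% against 46.2% and 41.5% against 32.5%. The others were as follows. Share by gene span was 83.0% at 50 kb and 28.3% with the 10000 regions of highest fold enrichment for FOSL2 (all genes 92.9% and 20.3%). With the stretch from each start to the next in place of the span it was 5.66% for FOSL2 and 3.77% for JUNB, so the span shares rest on regions common to many genes. Within 10 kb of an end it was 75.5% for FOSL2 (all genes 70.2%) and 71.7% for JUNB (56.1%), and within 50 kb it was 83.0% (92.6%) and 71.7% (83.1%). Members were thus above all genes at 1 and 10 kb and below them at 5 and 50 kb. With the 10000 strongest FOSL2 regions it was 0% (all genes 7.35%). At the start alone, chosen after seeing the data, it was 3.77% for FOSL2 and 1.887% for JUNB. Densities were 11.01 and 5.50 per Mb without flanks and 40.0 and 26.6 with 500 kb flanks for FOSL2 and JUNB, against 20.5 and 16.2 with 100 kb flanks and 24.98 and 13.2 over all chromosomes, so whether the locus is below or above the rest depends on the flank. Without flanks the shared portion of FOSL2 regions was 37.5% and the JUNB median 4.10. Each factor had 1 list, so no replicate could be left out. No paired analysis was possible because no value per library was used. Weak regions (−log10 q under 10) made up 4 of 8 FOSL2 and 2 of 4 JUNB regions of the cluster.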

Other observations

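Genes listed for promoter choice at the cluster, or for cohesin and chromatin more generally, mostly carried regions in HaCaT cells. A role at the cluster was not examined for each of them. Of 20 such genes 18 had a FOSL2 region and 18 a JUNB region within 5 kb of their span, against 70.5% and 58.2% of all protein-coding genes. The highest values were 13.4 (FOSL2) and 9.26 (JUNB), both at PDS5A, a cohesin regulator. SMC1A, a cohesin subunit, had no region of either factor, RAD21, another cohesin subunit, had 1 JUNB region of 3.43 and no FOSL2 region, and EHMT1, a histone methyltransferase, had FOSL2 only. CTCF, the insulator protein, had up to 2.88 for FOSL2 and 3.86 for JUNB. Of 15 genes for intracellular partners of protocadherins, all had a FOSL2 region and 10 a JUNB region by span. Within 5 kb of the start these were 9 and 3 of 12, against 45.5% and 38.1% of all genes. For the 18 genes of the promoter choice and chromatin list with a known start they were 10 and 9. CYFIP1, a subunit of the WAVE actin-regulating complex, had the highest values (13.5 and 12.3), and CTNNB1, FYN, MARCKS, RET and AXIN1 had no JUNB region. Many of these genes are long, and genes in the span range of the alpha and gamma protocadherins had FOSL2 in 84.4% and JUNB in 70.0% of cases. These shares were not tested.

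The remaining gene of chromosome 5 that is annotated as a vault RNA, VTRNA2-1 (chr5:136080491-136080598), lay outside the protocadherin locus. VTRNA2-1 also lay under a region of each factor. Its fold enrichments were 4.41 (FOSL2) and 3.66 (JUNB), with summits 137 and 114 bp above its lower end, against 10.7 to 11.7 and 7.98 to 9.73 at the 3 vault RNA genes beside the alpha genes.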
